A study of Arabidopsis thaliana with 3 samples.

Results

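Lipid transfer proteins are small secreted proteins of the cell wall and cuticle, built on a cysteine-rich fold that can hold a lipid. Hybrid proline-rich proteins carry the same cysteine-rich domain behind a proline-rich stretch. In Arabidopsis thaliana several hybrid proline-rich genes lie side by side on chromosome 4, in the group that holds AZI1, known for its part in the priming of defence by azelaic acid. DIR1, a lipid transfer protein, is known for its part in long-distance signalling of acquired resistance. The 4 genes described here are AT4G12490 and AT4G12500, tandem neighbours on chromosome 4 of the hybrid proline-rich kind, AT1G62510 on chromosome 1, also of the lipid transfer-like and hybrid proline-rich kind, and AT5G48490, a lipid transfer protein gene on chromosome 5 that follows DIR1 in gene order. They were picked by gene symbol, and with their values on these arrays known, from 13355 named genes. Each is read by 1 probe set of the class designed to read a single transcript, so that all 4 were measured. A gene is called measured below where the gene listing of the array names a probe set for it alone. Unmeasured genes may still have probe sets on the array, unnamed or shared with other genes, that were not used.

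The samples were whole seedlings of 2 weeks of age, kept at 22 °C under long days (light for 16 h, dark for 8 h), and measured on Affymetrix ATH1 arrays. There were 3 arrays: a transgenic plant overexpressing DRB3, a transgenic plant overexpressing DRB2, and the wild type, 1 array for each genotype. DRB proteins bind double-stranded RNA and are known from small RNA pathways. Which promoter drives the transgenes, how many lines were used and whether seedlings were pooled was not stated in the labels. Without replicates no difference below has an error or a p-value, so every value is a description of these arrays, and their number limits the precision. Values are linear MAS5 intensities, and readings of different genes are not compared in level. Readings under a floor of 109 intensity units were set to it before a ratio was taken, so that a fold with 1 side under the floor is a lower bound. The words rose and fell are used below for a difference of 2-fold or more in floored intensity.

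On the wild-type array both tandem neighbours lay under the floor, and on the DRB3 overexpressor array both stood well above it. AT4G12490 read 2998 in the DRB3 overexpressor, 717 in the DRB2 overexpressor and 89.6 in wild type. It rose at least 27.6-fold in the DRB3 overexpressor over wild type and at least 6.59-fold in the DRB2 overexpressor over wild type. The DRB3 overexpressor had the highest reading of this gene and wild type the lowest. AT4G12500 read 611 in the DRB3 overexpressor, 146 in the DRB2 overexpressor and 60.5 in wild type. It rose at least 5.63-fold in the DRB3 overexpressor over wild type, while the DRB2 overexpressor, close to the floor, stood at least 1.34-fold above wild type and did not pass 2-fold. The order of the arrays was the same for both neighbours.

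**Figure D1:**
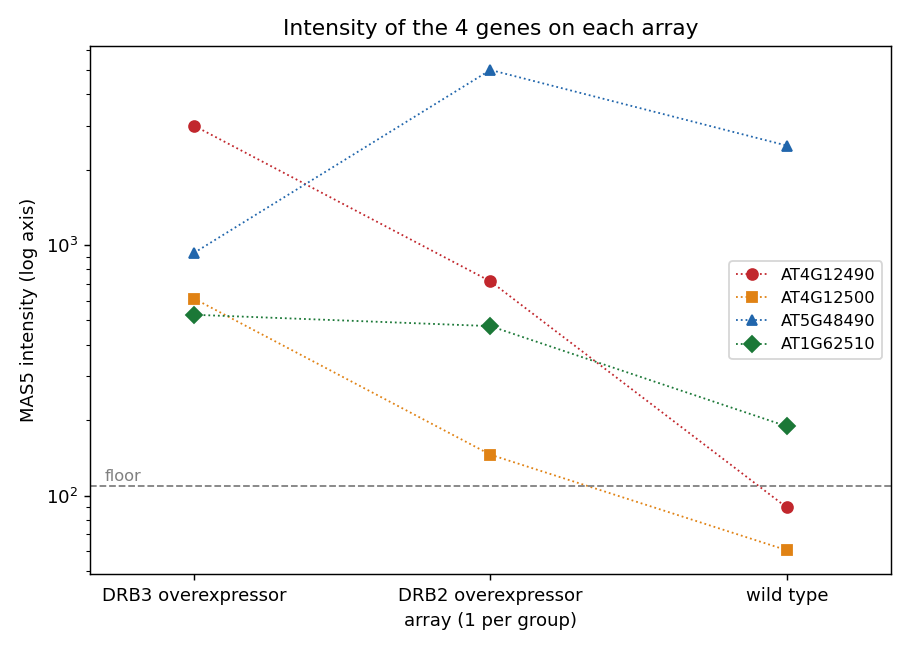
MAS5 intensity (log axis) of the 4 genes on the DRB3 overexpressor, DRB2 overexpressor and wild-type arrays, 1 point per array, with the floor of 109 as a dashed line. Dotted lines join points of a gene and carry no order, and heights are read within a gene only. AT4G12490, AT4G12500 and AT1G62510 are lowest in wild type, and AT5G48490 is highest in the DRB2 overexpressor at 5004.

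Between the overexpressors the tandem neighbours gave nearly the same ratio, 4.18-fold higher in the DRB3 than in the DRB2 overexpressor for AT4G12490 and 4.20-fold for AT4G12500. With the floor at percentile 60, which puts the DRB2 overexpressor reading of AT4G12500 under it, AT4G12500 was at least 2.02-fold higher in the DRB3 than in the DRB2 overexpressor and at least 2.02-fold above wild type, while AT4G12490 stayed at 4.18-fold between the overexpressors. Both genes have only bounds against wild type, so how far they differ from each other there cannot be read. Whether the probes of either gene also read the other's transcript was not tested. The RefSeq table places AT4G12495 inside the span of AT4G12490, and which of them these probes lie in was not tested either.

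AT5G48490 followed another course. It read 931 in the DRB3 overexpressor, 5004 in the DRB2 overexpressor and 2496 in wild type, all above the floor. It fell 2.68-fold in the DRB3 overexpressor relative to wild type. In the DRB2 overexpressor it was 2.00-fold higher than in wild type, at the edge of the threshold. That call is lost with median centring of the arrays (1.91-fold) and with a pseudocount of 16 in place of the floor (just under 2-fold). Set directly against the DRB2 overexpressor, the DRB3 overexpressor was 5.38-fold lower, the lowest of the 13355 ratios in that comparison as processed here and between 1 and 3 from the lowest in the alternatives.

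AT1G62510 differed from wild type by similar folds in both overexpressors. It read 527 in the DRB3 overexpressor, 475 in the DRB2 overexpressor and 189 in wild type. It rose 2.79-fold in the DRB3 overexpressor and 2.51-fold in the DRB2 overexpressor over wild type. The overexpressors were 1.11-fold apart. With the floor raised to percentile 60, which puts the wild-type reading under it, the ratios were at least 1.74-fold and at least 1.57-fold, and neither passed.

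Among all genes, 1.44% rose and 1.54% fell in the DRB3 overexpressor relative to wild type, where 3 of the 4 genes rose and 1 fell. In the DRB2 overexpressor relative to wild type, 0.532% rose and 0.412% fell, and 3 of the 4 rose. These are 71 genes higher and 55 lower, a balance that median centring turned to 55 higher and 74 lower. In the DRB3 relative to the DRB2 overexpressor, 0.577% rose and 0.614% fell, and of the 4 genes 2 rose and 1 fell. Here 77 genes higher and 82 lower became 90 and 61 with median centring. The genes were picked for these readings, so nothing is read from their shares, and both comparisons with wild type share its single array. Over the 7765 genes that cleared the floor on any array, the central 95% of log2 ratios ran from -1.02 to 0.99 for the DRB3 overexpressor over wild type, from -0.73 to 0.78 for the DRB2 overexpressor over wild type and from -0.82 to 0.76 for the DRB3 over the DRB2 overexpressor. The log2 ratio of AT4G12490 in the first of these was at least 4.79, that of AT4G12500 at least 2.49 and that of AT1G62510 1.48. All 3 lay above that central range, and AT5G48490, at -1.42, lay below it. The genes were picked with these readings known, so nothing is read from their place outside the range either.

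**Figure D2:**
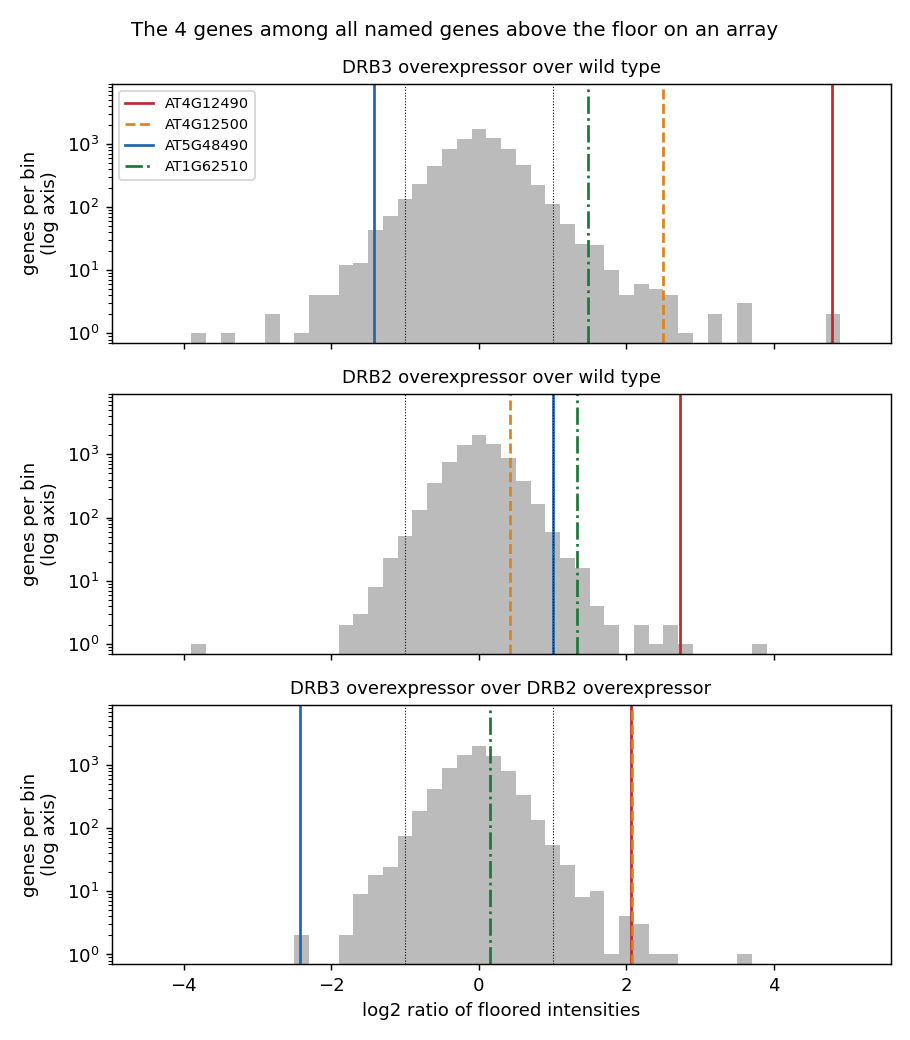
Histograms of the log2 ratio of floored intensities (bins of genes, log count axis) over the 7765 named genes that cleared the floor on any array, 1 panel per comparison, with a line for each of the 4 genes and dotted lines at 2-fold. AT4G12490 lies at the far right for the DRB3 overexpressor over wild type (4.79, a bound), and AT5G48490 at the far left for the DRB3 over the DRB2 overexpressor (-2.43).

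The neighbourhood of each gene was read next, with flanking genes taken as the nearest named protein-coding gene on each side, a rule chosen after their values were seen. Before AT4G12490 the nearest was SKU5, for a glycoprotein of directional growth, with 7 unmeasured protein-coding genes between them. SKU5 is thus not adjacent, and the genes next to AT4G12490 on that side were not among the named genes. It read 3605 in the DRB3 overexpressor, 3160 in the DRB2 overexpressor and 2620 in wild type, a log2 ratio to wild type of 0.46 and 0.27. After AT4G12500 came AT4G12530, with 2 unmeasured protein-coding genes between them, under the floor on all 3 arrays. Of 8 further genes listed from the chromosome 4 group only AT4G12530 and AT4G12540 were named with a probe set of their own. AT4G12540 was also under the floor throughout, at 26.6 in the DRB3 overexpressor, 63.9 in the DRB2 overexpressor and 22.6 in wild type. With the floor at percentile 20 or the pseudocount it passed 2-fold upward in the DRB2 overexpressor over wild type. At percentile 20 it also passed downward in the DRB3 relative to the DRB2 overexpressor. AZI1 and EARLI1 were not among the named genes and were not analysed here.

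On chromosome 5 the gene before DIR1, AT5G48480, read 661 in the DRB3 overexpressor, 648 in the DRB2 overexpressor and 700 in wild type. The gene after AT5G48490, AT5G48500, read 145, 173 and 160 in the same order of arrays. Neither flanking gene passed 2-fold in any of the 3 comparisons, and DIR1 itself was not analysed here. AT1G62500, directly before AT1G62510 and on the hybrid proline-rich list, read 275 in the DRB3 overexpressor, 440 in the DRB2 overexpressor and 281 in wild type, with log2 ratios to wild type of -0.03 and 0.64. AT1G62520, on the other side and past 1 unmeasured protein-coding gene, was under the floor on all 3 arrays.

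Of 94 other lipid transfer and hybrid proline-rich genes listed, 41 were measured and 20 of these lay under the floor on all 3 arrays. A gene under the floor throughout has a ratio of 1 by construction. In the DRB3 overexpressor relative to wild type 1 of the 41 rose and none fell, beside the 1.44% and 1.54% of all genes. The same counts held for the DRB2 overexpressor relative to wild type, and in the DRB3 relative to the DRB2 overexpressor none rose and 1 fell. A single gene of 41 is too few to set as a share against those of all genes given above, and the counts change with the floor. The median log2 ratio over the 21 genes that cleared the floor on any array was -0.04, 0.17 and -0.09 in these comparisons, where the median over all 7765 such genes was 0.00, 0.01 and -0.01.

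The family gene that rose in both overexpressors was AT4G22470, of the hybrid proline-rich list and another chromosome 4 group. It read 421 in the DRB3 overexpressor, 254 in the DRB2 overexpressor and 42.7 in wild type, at least 3.87-fold and at least 2.34-fold above wild type. With the floor at percentile 60 both of these calls were lost. Like the tandem pair, it was under the floor in wild type and highest in the DRB3 overexpressor. Its group neighbour AT4G22490 read 489 in the DRB3 overexpressor, 1207 in the DRB2 overexpressor and 919 in wild type. It fell in the DRB3 relative to the DRB2 overexpressor, with a log2 ratio of -1.30, and so had the order of arrays of AT5G48490. Also of that group, AT4G22460 read 243, 194 and 167 and AT4G22610 read 362, 616 and 411 in the DRB3 overexpressor, the DRB2 overexpressor and wild type, and neither passed 2-fold.

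By class, the hybrid proline-rich list had 10 of 26 genes measured, 7 above the floor, and AT4G22470 and AT4G22490 are its genes past 2-fold. The type 1 lipid transfer proteins had 4 of 15 measured, 2 above the floor, and none passed in any of the 3 comparisons. With the pseudocount 1 of the 4, under the floor on all 3 arrays, passed downward in the DRB3 overexpressor over wild type, beside 512 of all genes. AT2G18370 had log2 ratios to wild type of 0.40 in the DRB3 overexpressor and -0.29 in the DRB2 overexpressor, and AT5G01870 had -0.10 and 0.24. The lipid transfer proteins anchored to the membrane by a glycolipid had 12 of 28 measured and 5 above the floor, and none passed. With the floor at percentile 20, an intensity of 26.7, 3 of the 12 passed 2-fold upward in the DRB2 overexpressor over wild type and 1 passed downward in the DRB3 relative to the DRB2 overexpressor. Over all genes 429 were higher in the first of these comparisons and 404 lower in the second. The genes that passed so were under the main floor on all 3 arrays. With the pseudocount 1 of the 12 passed upward in the DRB2 overexpressor over wild type, beside 662 of all genes. Downward, 1 passed in the DRB3 overexpressor over wild type and 2 in the DRB3 relative to the DRB2 overexpressor, beside 512 and 610. AT2G48130 read 538 in the DRB3 overexpressor, 500 in the DRB2 overexpressor and 292 in wild type, with log2 ratios to wild type of 0.88 and 0.77, and AT2G44300 had -0.45 and -0.25. Type 2 and DIR1-like lipid transfer proteins had 14 of 24 measured and 7 above the floor, and none passed. With the pseudocount 1 of the 14 passed upward in the DRB2 overexpressor over wild type, beside 662 of all genes. Another 1 passed downward in the DRB3 relative to the DRB2 overexpressor, beside 610 of all genes. AT3G18280 read 1315, 1286 and 740 in the same order of arrays, with log2 ratios to wild type of 0.83 and 0.80, and AT1G48750 had 0.23 and 0.52.

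**Figure D3:**
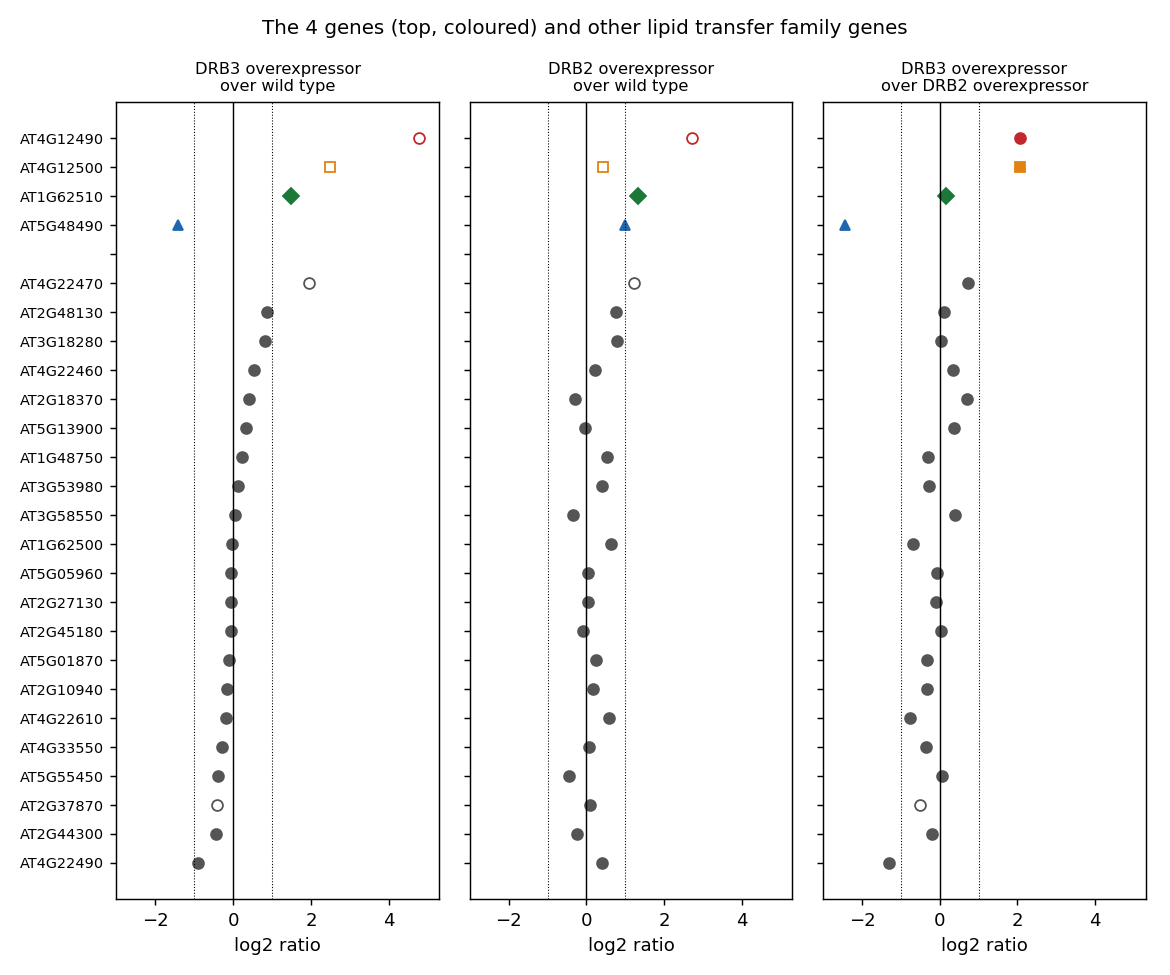
Log2 ratio of floored intensities for the 4 genes (top, coloured) and the 21 other lipid transfer family genes that cleared the floor on any array (grey), 1 panel per comparison, with open symbols for bounds and dotted lines at 2-fold. Among the others AT4G22470 lies past 2-fold against wild type in both overexpressors, and AT4G22490 in the DRB3 over the DRB2 overexpressor (-1.30).

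Of 28 genes listed for acquired resistance, 3 were measured. AT5G03350 read 1055 in the DRB3 overexpressor, 2242 in the DRB2 overexpressor and 2572 in wild type, and so fell in the DRB3 overexpressor against both other arrays, with log2 ratios of -1.29 to wild type and -1.09 to the DRB2 overexpressor. SAG101, a lipase-like partner of EDS1 in immune signalling, had log2 ratios to wild type, where it was under the floor, of 0.90 or more in the DRB3 overexpressor and 0.20 or more in the DRB2 overexpressor. AT5G52810 had 0.27 and -0.61. In these 3 genes 0 rose in either overexpressor over wild type, beside 1.44% of all genes in the DRB3 and 0.532% in the DRB2 overexpressor. So few genes cannot be set against those shares, and the other listed genes were not measured.

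The genes with ratios to wild type nearest to each of the 4 were found by the Euclidean distance in those 2 log2 ratios, over 3 arrays and with floored values where a reading was under the floor. AT2G43620 lay nearest to AT4G12490, at a distance of 0.06, with 3087 in the DRB3 overexpressor, 748 in the DRB2 overexpressor and 116 in wild type. The next were AT1G65500 (1.25), AT5G39520 (1.62) and the plant defensin gene PDF1.2 (1.62). For AT4G12500 they were AT1G43910 (0.39), AT4G19430 (0.52), AT5G51440 (0.53) and AT5G48570 (0.57). The ratios of both tandem genes to wild type are bounds, so these distances, and which genes come nearest, rest on the floor.

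The nearest to AT5G48490 were AT4G12980 (0.54), AT4G02850 (0.56), AT3G63340 (0.59) and AT3G28220 (0.74). AT4G12980 read 120 in the DRB3 overexpressor, 437 in the DRB2 overexpressor and 222 in wild type. For AT1G62510 the nearest was EXO, a gene linked to growth under brassinosteroid, at 0.09, with 2821 in the DRB3 overexpressor, 2754 in the DRB2 overexpressor and 1067 in wild type. AT5G01210 (0.11), AT2G04570 (0.14) and AT5G64100 (0.18) followed.

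RCA, the activase of Rubisco and a marker of green tissue, read 21690 in the DRB3 overexpressor, 29895 in the DRB2 overexpressor and 33717.5 in wild type, and was 1 of 7 green tissue markers measured. Of 6 root markers 3 were measured, and their readings follow in the same order of arrays. EXPA18, a root hair expansin, read 439, 278 and 184 and rose 2.39-fold in the DRB3 overexpressor over wild type, EXPA7 read 158, 95.1 and 52.1, and PYK10, a root beta-glucosidase, read 21891, 21376 and 19349. EXPA7 cleared the floor in the DRB3 overexpressor alone. EXPA18 and PYK10 were highest in the DRB3 overexpressor and lowest in wild type, as were AT4G12490, AT4G12500 and AT1G62510. For PYK10 that order rests on small differences. In the DRB3 overexpressor it was only 1.02-fold above the DRB2 overexpressor and 1.13-fold above wild type. The part of root tissue in these results was not tested. Of 5 root cortex markers 4 were measured, with AT1G62500, the gene before AT1G62510, among them. None passed 2-fold, and AT5G02000 was under the floor on all 3 arrays. The largest ratios to wild type among the cortex markers were log2 -0.91 for AT3G21670 in the DRB3 overexpressor and 0.77 for AT1G09750 in the DRB2 overexpressor. Set against the DRB2 overexpressor, the 3 above the floor were lower in the DRB3 overexpressor. Their log2 ratios there were -0.68 for AT1G62500, -0.62 for AT1G09750 and -0.45 for AT3G21670. In whole seedlings fewer cells of a type and less RNA per cell cannot be told apart. No seed or flower marker was among the named genes.

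The ratio of 3' to 5' signal, a measure of RNA integrity and labelling, also followed the arrays. For the GAPDH control it was 3.89 in the DRB3 overexpressor, 5.77 in the DRB2 overexpressor and 9.31 in wild type, and for the actin control 17.7, 24.7 and 29.2. For the ubiquitin control it was 3.89, 4.61 and 4.66. The control for 25S ribosomal RNA read 11338 in the DRB3 overexpressor, 3603 in the DRB2 overexpressor and 12982 in wild type. The part of these differences in the readings of the 4 genes was not tested. The transcripts of DRB2 and DRB3 were not analysed here, so the labels stand unchecked.

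**Figure D4:**
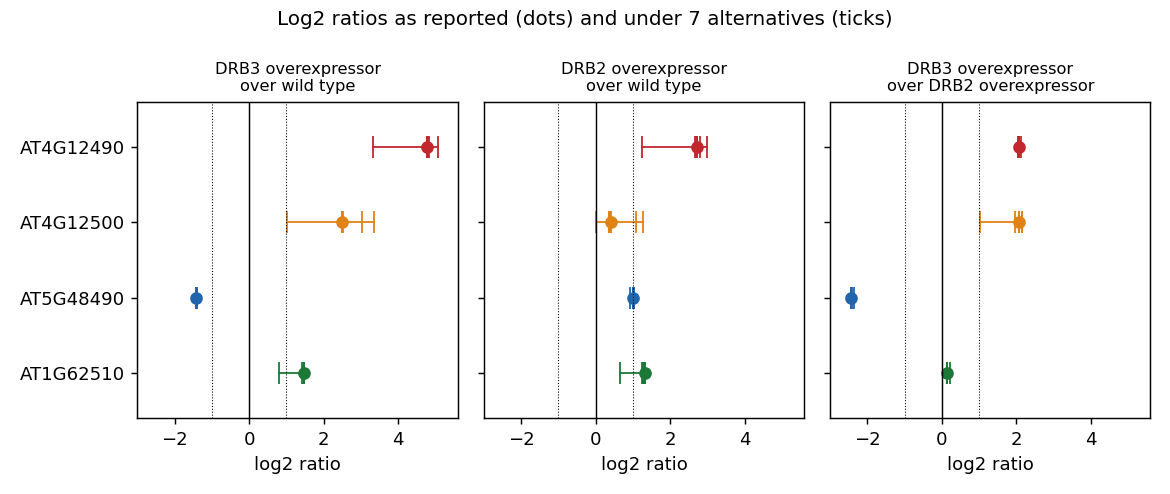
Log2 ratio of each of the 4 genes as reported (dot) and under 7 other ways of processing the intensities (ticks, joined by a line), 1 panel per comparison, with dotted lines at 2-fold. AT5G48490 spans only -1.42 to -1.40 for the DRB3 overexpressor over wild type, while AT4G12490 spans 3.31 to 5.06 there, where its wild-type reading lies under the floor. By construction, averaging probe sets moves none of the 4 genes, and the other floors do not move AT5G48490.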

How the data were processed

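Whole-seedling RNA of 3 groups, 1 array each, was turned into biotinylated cRNA (10 ug per sample), per the labels' protocols, although the label field names the dye Cy3. The authors deposited linear MAS5 intensities, per the submitters' processing notes, with no version named. All 3 arrays had a 2% trimmed mean of 500.05, so the values were used without further scaling. Groups came from the genotype labels, since the design text of the series describes another experiment. Of 22810 probe sets 64 controls were left out, and 13513 of the 14016 listed probe sets had 1 gene, while 503 with several were not used. Where a gene had several probe sets, the one with the highest mean stood for it. RefSeq (TAIR10.1) matched 13285 of 13355 genes, and no coordinates are given because the arrays name no build. The RefSeq table used here holds no descriptions, so family genes came from the locus lists alone.

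The floor is percentile 40 of the probe sets that are no controls, averaged over the arrays. With 1 array per group no test was run. The members and lists were chosen with earlier results of these data known. Named were the 4 genes, their 4 nearest genes each, the measured genes of the chromosome 4 group, and of each list those past 2-fold or else up to 2 with the largest ratios; AT4G22460, AT4G22610, the flanking genes and all measured markers and acquired resistance genes were added after their values were seen. The ratio and call steps were tested on simulated data in which only genes well above the floor were changed. That test does not cover ratios with a side under the floor, such as those of AT4G12490 and AT4G12500 over wild type. Computation used numpy 2.4.6, scipy 1.17.1, pandas 2.3.3 and statsmodels 0.14.6 under Python 3.11.15, and plots matplotlib 3.10.9.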

Additional observations from a re-analysis of the deposited data

How the results depend on the processing

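The results were recomputed with 9 alternatives: other floors (percentile 20, percentile 60), a pseudocount of 16 instead of a floor, median centring, quantile normalization, loess (span 0.3), averaged probe sets, and a threshold at 1.5-fold or at 3-fold. Of the recomputed ratios of the 4 genes 78 kept their side of 2-fold, 4 lost the call and 2 gained it. None changed sign, though AT4G12500 came to 0 for the DRB2 overexpressor over wild type with the floor at percentile 60. Some of the 78 could not have moved. Each of the 4 genes has 1 probe set, so averaging probe sets left every ratio as it was. The other floors likewise cannot move a ratio with both readings above them, as for AT5G48490 in all comparisons. The losses were AT1G62510 over wild type with the floor at percentile 60 (log2 0.80 in the DRB3 and 0.65 in the DRB2 overexpressor) and AT5G48490 in the DRB2 overexpressor with centring (0.94) and with the pseudocount. The gains were AT4G12500 in the DRB2 overexpressor over wild type with the floor at percentile 20 (1.27) and the pseudocount (1.08). At 3-fold 2 of the 4 passed upward in the DRB3 overexpressor over wild type (48 of all genes) and 1 in the DRB2 (10). None passed downward there (30 and 3). Between the overexpressors 2 passed upward (13) and 1 downward (8).

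The counts among the 41 other family genes, 1 in each comparison, rest on the floor and the threshold. For the DRB3 overexpressor over wild type they were 2 with the floor at percentile 20, 0 at percentile 60, 3 with the pseudocount (1 higher, 2 lower) and 4 at 1.5-fold. For the DRB2 overexpressor over wild type they were 6 (5 higher, 1 lower), 0, 4 (all higher) and 4 in the same order, and 0 at 3-fold. For the DRB3 over the DRB2 overexpressor they were 3 with the floor at percentile 20 and 4 with the pseudocount, all lower, 5 at 1.5-fold and 0 at 3-fold. A lower floor admits weak readings by construction, and the counts over all genes moved too: with the floor at percentile 20 and with the pseudocount they were 369 higher and 400 lower, and 508 and 512, for the DRB3 overexpressor over wild type, 429 and 162, and 662 and 279, for the DRB2 overexpressor over wild type, and 164 and 404, and 261 and 610, for the DRB3 over the DRB2 overexpressor. No paired analysis was possible because each group has 1 array and the labels give no replicate numbers. Leaving out a replicate was not possible for the same reason.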
